A study of Arabidopsis thaliana with 2 samples.

Results

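Transcripts of the Aurora kinase genes, which act in cell division, were measured in thickening hypocotyls of Arabidopsis thaliana. The genes were found by a rule on gene symbols. It took probe sets assigned to a single gene whose symbol begins with CYCA, CYCB, CYCD, CYCH, CYCT, CYCP, CYCL or CDKA to CDKG, or is KRP or AUR followed by a number. The rule found 3 probe sets, for AUR1 (AT4G32830), AUR2 (AT2G25880) and AUR3 (AT2G45490), among 13513 single-gene probe sets and 22746 plant probe sets in all. The gene table used for naming (RefSeq, TAIR10.1) holds 53 genes with such symbols, of which 39 are cyclins, 9 are CDKs, 2 are KRP genes and 3 are AUR genes. No single-gene probe set was named here for the 50 genes other than AUR, so cyclins, CDKs and KRP inhibitors with these symbols are not analysed here. That count reflects the naming and the selection, and does not show that these genes lack probes on the array. The annotation leaves 8730 plant probe sets unnamed. None of the 115 symbols in the gene table that hold a semicolon, 47 of those 50 among them, had a single-gene probe set here. A probe set whose annotated symbol held a semicolon was not taken as single-gene. That absence therefore says nothing of the array. The values below therefore describe the Aurora kinases and cannot stand for cyclins or CDKs.

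The study hybridised RNA from 2 hypocotyl samples of the Col ecotype to ATH1 arrays, 1 array per sample. The labels put both in 1 group. Its plants were at growth stage 6.0, grew on a mix of compost and vermiculite in a phytotron at 22 °C under short days (8 h light, 16 h dark), and received Intercept with the first watering. No genotype other than the ecotype is given in the labels, and the design holds no contrast between conditions. Nothing in the labels ties the samples to separate plants, so their spread may be technical. No test was possible with 2 samples of 1 group, and the number of arrays limits the precision. A likeness of pattern between genes cannot be read from 2 arrays either.

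Aurora kinases are serine/threonine kinases that act in mitosis. In Arabidopsis, AUR1 and AUR2 are closely related and act on the spindle and in placing the plane of division, while AUR3 belongs to a separate branch that acts at centromeres. Their transcripts are typical of dividing cells. In a hypocotyl that thickens by secondary growth, the cambium divides to give xylem inward and phloem outward, and cyclins, CDKs and CDK inhibitors set the pace of such divisions.

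Transcripts of all 3 Aurora genes were detected in both samples. AUR1 had a scaled signal of 50.1 in sample 1 and 52.0 in sample 2, with a mean of 51.0 ± 1.34 (SD, n = 2). AUR2 had 33.4 in sample 1 and 30.9 in sample 2, with a mean of 32.1 ± 1.77 (SD, n = 2). AUR3 had 26.5 in sample 1 and 28.7 in sample 2, with a mean of 27.6 ± 1.56 (SD, n = 2). Within each gene the values lay close together, and neither sample had the higher signal for all 3 genes. The signals are linear intensities per probe set and have no absolute unit. Equal amounts of RNA can give unequal brightness on different probes, so the order of the 3 signals is not an order of transcript levels. All 3 probe sets have plain names without a suffix for shared probes. Whether AUR1 and AUR2 transcripts bind each other's probes was not tested.

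**Figure D1:**
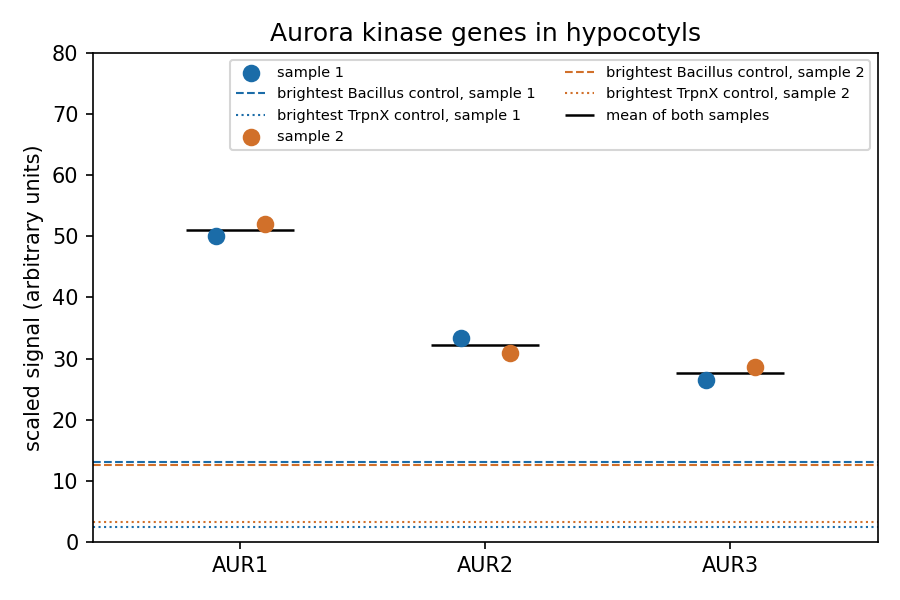
Scaled signal (arbitrary units, linear axis from 0) of AUR1, AUR2 and AUR3 in sample 1 and sample 2, with the mean of both as a short black line and the brightest control signals on each array as dashed (all Bacillus controls) and dotted (TrpnX controls) lines. All 6 points lie above the dashed lines at 13.1 and 12.6, and the points of each gene lie close together.

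Detection was read against control probe sets for Bacillus transcripts. The limit used was the brightest of the 3 TrpnX control probe sets, at 2.50 in sample 1 and 3.30 in sample 2. All 3 Aurora genes exceeded it on both arrays, where 85.2% of plant probe sets and 82.7% of single-gene probe sets also did. A count of 3 of 3 is near that background and does not set the Aurora genes apart. Against the brightest of all 27 Bacillus controls, 13.1 in sample 1 and 12.6 in sample 2, all 3 passed as well, where 70.0% of plant probe sets did. AUR1 was 3.82 times that control in sample 1 and 4.13 times in sample 2. AUR2 was 2.55 times in sample 1 and 2.45 times in sample 2. AUR3 was nearest to the controls, at 2.02 times in sample 1 and 2.28 times in sample 2. At a stricter signal of 50 on both arrays, AUR1 was the member that passed, at 50.1 and 52.0, where 45.1% of plant probe sets passed. In bulk tissue, fewer dividing cells and less RNA per dividing cell cannot be told apart, so these signals do not say how many cells were dividing.

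The samples differed little in the Aurora genes. The log2 ratio of sample 2 over sample 1 was 0.05 for AUR1, -0.11 for AUR2 and 0.12 for AUR3, which is 1.04-fold, 0.925-fold and 1.08-fold. Their median was 0.05, against 0.01 over the 19379 plant probe sets that passed the limit in both samples. The 3 log2 ratios were smaller in size than the SD of the log2 ratio among plant probe sets of like signal. That SD was 0.35 for the 4034 probe sets with mean signals from 20 to 50, which hold AUR2 and AUR3, and 0.25 for the 3696 from 50 to 100, which hold AUR1. None of the 3 differed by 2-fold or more between the samples. Of plant probe sets above the limit, 3.25% did, 2.34% with the higher signal in sample 2 and 0.908% with the lower. Most of these were dim: the share was 11.4% under a mean signal of 20. It was 1.14% from 20 to 50 and 0.46% from 50 to 100, the ranges that hold the Aurora genes. A count of 0 of 3 is near those shares and does not set the Aurora genes apart. At 1.5-fold, too, 0 of the 3 passed, where 10.1% of plant probe sets above the limit did. That share covers all signals and was not counted by signal range. Since the samples carry identical labels, these ratios measure spread and not an effect. Median scaling, quantile normalization and loess normalization did not turn a direction. No rescaling left the ratios as they were, and adding a constant cannot turn a direction, so those settings say nothing of it. Across 4 other scalings and normalizations, and with 16 added before log2, the log2 ratio lay between 0.03 and 0.05 for AUR1, between -0.14 and -0.07 for AUR2 and between 0.07 and 0.12 for AUR3.

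**Figure D2:**
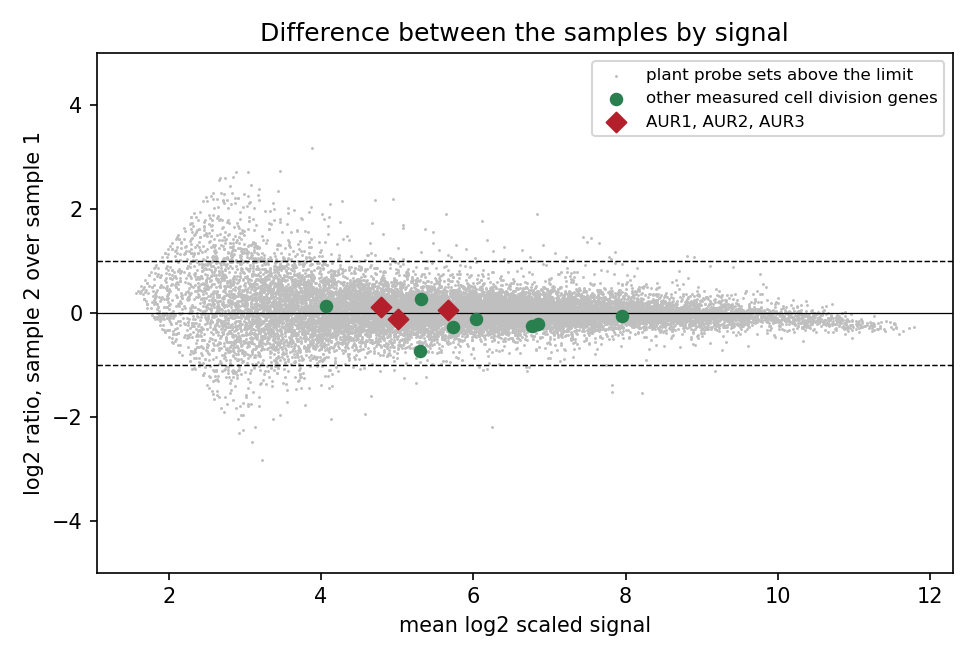
Log2 ratio of sample 2 over sample 1 against the mean log2 scaled signal. Grey points are the 19379 plant probe sets that passed the limit in both samples. AUR1, AUR2 and AUR3 are red diamonds, and the other 8 measured genes of the cell division lists are green circles. Dashed lines mark 2-fold. The diamonds lie at 0.05, -0.11 and 0.12, inside the grey cloud, and no marked gene crosses a dashed line.

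Other genes were taken from cell division lists of 121 loci in 8 groups. Of these loci, 11 had a single-gene probe set, the 3 Aurora genes among them. The 11 include 2 loci of the cyclin list and 1 of the CDK list without a symbol in the gene table. Whether those loci act in cell division was not tested, so the counts here are counts of list members. All 11 exceeded the brightest Bacillus controls on both arrays, as did 70.0% of plant probe sets. None differed by 2-fold between the samples. Among plant probe sets above the limit 3.25% did, from 11.4% under a mean signal of 20 to 0.329% at 200 or more. The count of 0 is therefore near the background. The detection count lies above its background share, but the difference was not tested. The list of 8 mitotic kinase and spindle checkpoint genes was the best covered, with 5 measured. BUBR1, a spindle checkpoint protein that delays chromosome separation until spindle attachment is complete, had 16.0 in sample 1 and 17.6 in sample 2, with a log2 ratio of 0.14. These signals were 1.22 and 1.40 times the brightest Bacillus controls, so BUBR1 was weakly detected. BUB3.1, a further checkpoint component, had 50.5 in sample 1 and 30.5 in sample 2, which gives a log2 ratio of -0.73 (0.604-fold). That difference exceeded the SD of 0.35 among probe sets of like signal and was the widest among the 11 genes. SIM, AT5G48630 and AT5G48640, described below, also exceeded the SD for their range of signal. The share of all plant probe sets that exceed such an SD was not counted, so these genes are not set apart by it.

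Genes outside the spindle were also detected. PRL, known as PROLIFERA or MCM7, a subunit of the helicase complex that licenses and opens DNA for replication, had 36.4 in sample 1 and 43.5 in sample 2, with a log2 ratio of 0.26. It was the measured member of the 13-locus DNA replication list. HBT, or HOBBIT, a CDC27-type subunit of the anaphase-promoting complex that marks mitotic proteins for destruction, had 68.3 in sample 1 and 62.6 in sample 2, with a log2 ratio of -0.13. It was the measured member of a 9-locus list for that complex and its activators.

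SIM, or SIAMESE, a CDK inhibitor known from leaf hairs for ending mitosis in favour of endoreduplication, had 118.6 in sample 1 and 99.9 in sample 2, with a mean of 109 ± 13.2 (SD, n = 2). Its log2 ratio was -0.25, where the SD among probe sets with mean signals from 100 to 200 was 0.22. SIM was the measured member of a 13-locus list of CDK inhibitors and CDK-binding regulators, and its signal cannot be set against those of the Aurora genes as a level.

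A further 3 measured loci of the cyclin and CDK lists have no symbol in the gene table, and no role is given to them here. AT1G67580 had 253 in sample 1 and 240.5 in sample 2, AT5G48630 had 124.0 and 106.5, and AT5G48640 had 58.2 and 48.3. All 3 signals were lower in sample 2, by log2 ratios of -0.07, -0.22 and -0.27. For AT5G48630 the SD among probe sets of like signal was 0.217, just under the size of its ratio of -0.2195, and for AT5G48640 it was 0.25. Among the 8 measured genes other than the Aurora kinases, these 3 loci included, 2 had the higher signal in sample 2 and 6 in sample 1. Their median log2 ratio was -0.17, against 0.01 over all plant probe sets above the limit. The share of all plant probe sets with the higher signal in sample 1 was not counted. The count of 6 therefore does not set these genes apart. The lists for the RBR-E2F pathway and for cytokinesis and its MYB3R regulators had no member with a probe set named here, so they are not analysed here.

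**Figure D3:**
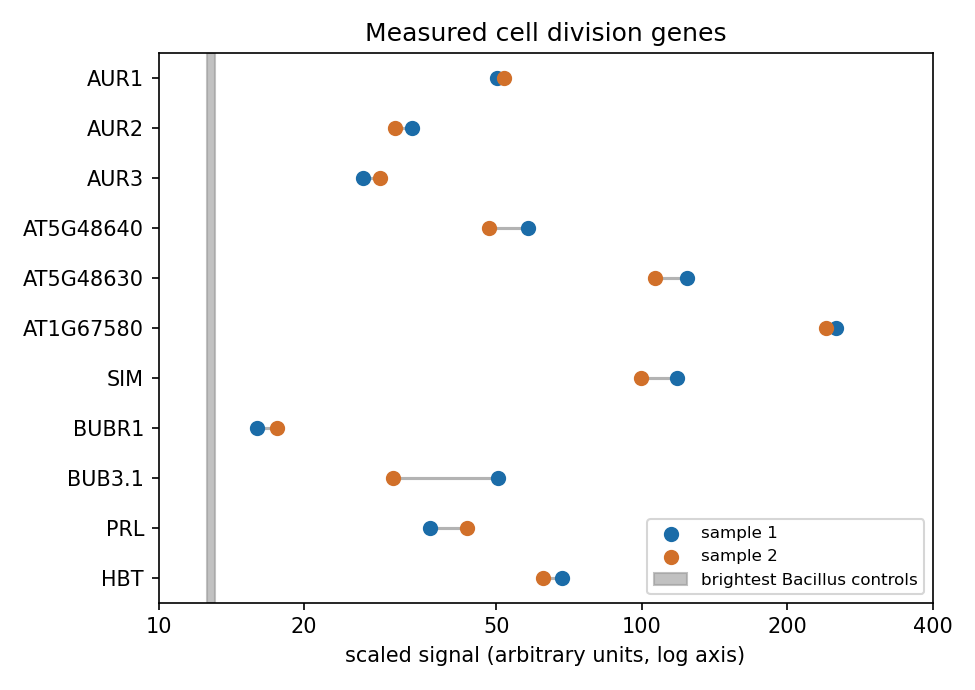
Scaled signal (arbitrary units, log axis) of the 11 measured genes of the cell division lists in sample 1 and sample 2, joined by a line. The brightest Bacillus controls (12.6 to 13.1) are a grey band. All points lie right of the band. BUBR1 lies nearest to it, and BUB3.1, at 50.5 in sample 1 and 30.5 in sample 2, has the longest line.

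The tissue label was checked with 29 marker loci, of which 14 had a single-gene probe set. The 4 measured xylem and secondary wall genes, the 3 genes listed for cambium and the 2 phloem genes all exceeded the brightest Bacillus controls. They did so on both arrays, as did 70.0% of plant probe sets. So did 2 leaf genes and 2 root hair genes, the last by 1.19 times at most. The measured anther gene, AT5G07230, did not reach the limit on either array, with 2.2 in sample 1 and 1.2 in sample 2. The marker counts therefore do not single out vascular tissue. CLE41, listed for cambium, had 757 in sample 1 and 699 in sample 2. CLE44, on the same list and encoding the same peptide signal, had 77.9 and 69.7. Whether the CLE41 and CLE44 transcripts came from cambium cells was not tested, so their signals are no measure of cambium. Phloem genes OPS and SWEET11 had 34.6 and 28.4 in sample 1 and 43.5 and 36.6 in sample 2. Leaf genes LHCB4.1 and RCA had 653 and 243 in sample 1 and 694 and 252 in sample 2. These markers do not show which cells held the Aurora transcripts, and their part in the Aurora signals was not tested.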

How the data were processed

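The authors deposited linear intensities, 1 per probe set and array, for 22810 probe sets on 2 ATH1 arrays hybridised with biotin-labelled cRNA, per the labels' protocols. For the software behind them, the sources used here give no name. In the deposited values, the mean after trimming 2% at each end was 100 on both arrays, and rescaling to that mean changed them by very little. Counts leave out the 64 control probe sets. Ratios set sample 2 over sample 1 on the log2 scale, and no constant was added. Of 14016 probe sets in the platform annotation, 13513 had 1 gene and no semicolon in the symbol, and 13436 of these matched the RefSeq gene table. The samples were not copies, since 329 of 22746 plant probe sets had exactly equal deposited values, which carry 1 decimal. Per the labels, average background was 79.94 and 95.57. No build is named for the values, so no coordinates are given. Every member is named, as are measured loci of the cell division lists. The members and lists were chosen with earlier results of these data known. Calculations used Python 3.11.15, matplotlib 3.10.9, statsmodels 0.14.6, scipy 1.17.1, pandas 2.3.3 and numpy 2.4.6. The trimmed-mean scaling, the log2 ratio and quantile normalization were tested on simulated data with less spread than these arrays. The detection limit and loess normalization were not tested in that way. Alternatives were other scalings, detection limits, symbols, thresholds and single samples.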

Additional observations from a re-analysis of the deposited data

How the results depend on the processing

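All 3 Aurora genes passed the detection limit under 11 of 12 alternatives. Of these, no limit, probe sets with plain names only and either sample alone had to give that count, and they say nothing of stability. No rescaling left the signals almost as they were, and symbols from the platform annotation left them unchanged, so these add little. When 50 was required in each sample, 1 passed, AUR1, because the signals of AUR2 and AUR3 are lower than 50. None differed by 2-fold under any of the 12 alternatives run, nor by 1.5-fold, where 10.1% of plant probe sets above the limit, at all signals, did. The median log2 ratio stayed between 0.03 and 0.05 under 11 alternatives. Among these, the detection limits, the symbols, plain names and no rescaling left the ratio of each gene as it was. They therefore say nothing of the stability of the median or of the 2-fold count. The median was 0.0299 with median scaling, 0.034 with quantile and 0.0399 with loess normalization, and 0.0409 with a constant added before log2. The 18 recomputed signals of single genes stayed within 1 SD, as those from 1 sample must. No paired analysis was possible because the labels give 1 group. Brightness over background limits precision: the SD of the log2 ratio was 0.63 under a mean signal of 20.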

Other observations

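A further 6 genes were chosen by symbols linked to cell division or microtubules. The choice came once the usable symbols were known and with some values seen, so these genes support nothing. HTR12, the centromeric histone CENH3, which marks centromeres in dividing cells, had 21.9 in sample 1 and 11.6 in sample 2. HTR12 passed the TrpnX limit on both arrays, but its value in sample 2 did not reach the 12.6 of the brightest Bacillus control there. Its log2 ratio was -0.92, wider than that of BUB3.1. Under a mean signal of 20, where HTR12 lies, the SD was 0.63 and 11.4% of probe sets differed by 2-fold. CDC27a, the second CDC27-type subunit gene of the anaphase-promoting complex beside HBT, had 26.9 in sample 1 and 17.6 in sample 2, with a log2 ratio of -0.61. With BUB3.1 at -0.73, it was lower in sample 2 by more than the SD of 0.35 among probe sets with mean signals from 20 to 50. AUR2 and AUR3, in the same range of signal, had -0.11 and 0.12.

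This set also held microtubule genes, and no pattern is read from their directions. KINESIN-13A had 176 in sample 1 and 179 in sample 2. Its log2 ratio of 0.03 was inside the SD of 0.22 for mean signals from 100 to 200. ATMAP65-6 encodes a microtubule-associated protein of a family that acts in part in cytokinesis. ATMAP65-6 had 576 in sample 1 and 464 in sample 2. Its log2 ratio was -0.31, where the SD for mean signals of 200 or more was 0.19. KINESIN-12B, a motor of the phragmoplast that builds the new cell wall, had 10.4 in sample 1 and 12.7 in sample 2. These lie close to or under the brightest Bacillus controls. Its log2 ratio was 0.29, where the SD under a mean signal of 20 was 0.63. The kinase gene cdc2cAt did not reach the limit in either sample, at 1.40 and 1.10. It was the gene of this set that did not pass.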
